A study of Mus musculus with 2 samples.

Results

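Fibroblast growth factors (FGFs) and their receptors were described in mouse embryonic stem cells in which the long noncoding RNA LincU had been targeted. The gene names were chosen with earlier results of these data known. Probes were taken by name, as every non-control probe whose array gene name was Fgf4, Fgf5, Fgf8, Fgf15, Fgf17, Fgfr1, Fgfr2, Fgfr3 or Fgfr4. This gave 9 genes of 37074 gene names on the array, or 17 of 56605 probes, with 5 probes for the 5 ligands and 12 for the 4 receptors. The cells were of the line 46C, grown in 15% serum and 1000 U/ml of the cytokine LIF on feeder cells, which were taken off before harvest. The array labelled shCtrl held RNA of cells with a control short hairpin, by its genotype label, although its title calls the cells WT. The array labelled shLincU held RNA of cells with a hairpin against LincU. The hairpins' delivery, and whether the cells were a clone or a pool, are not given in the sources used here. Each group was 1 array, so the differences have no replicate check and are given without a test, and the number of arrays limits the precision. LincU itself was not analysed here, so every direction rests on the labels.

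FGFs are secreted ligands that bind receptor tyrosine kinases together with heparan sulfate, and the receptors pass the signal through the adaptor FRS2 to the RAS and ERK kinases. In embryonic stem cells Fgf4 is the ligand the cells make themselves, Fgfr1 is the main receptor, and the signal through ERK lets cells leave the naive state of pluripotency. Fgf5 is a classical marker of the epiblast after implantation, and Fgf8 is made in the primitive streak of the gastrulating embryo. The series title names LincU as a keeper of naive pluripotency that limits ERK activity, which makes the ligands upstream of ERK of interest.

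Each probe is a DNA oligonucleotide of 60 bases, and each member probe was spotted once per array. All printed sequences run 5′ to 3′ and were read from the deposited files. Coordinates are those of the array's design, in build mm9, and exon or UTR annotation of that build was not used here. For the 3 ligands that the results turn on most, and for the 3 Fgfr4 probes that did not move alike, the last 30 bases are shown, with the polyadenylation hexamer AATAAA or ATTAAA in capitals where a probe held it.
Fgf8 (chr19:45811355-45811414, minus strand): ttgtgcatattgtttgctgttgggtttttt
Fgf5 (chr5:98705980-98706039, plus strand): ttatattcctaaatgctgcAATAAAgaggc
Fgf4 (chr7:152051089-152051148, plus strand): gagagatATTAAAatgacaaacgtgtctgc
Fgfr4, A_51_P408100 (chr13:55269977-55270036, plus strand): aaaggggcatcagctctggtgtccctgaga
Fgfr4, A_55_P2120055 (chr13:55270033-55270092, plus strand): agaacatggcatttttataaattatttttt
Fgfr4, A_52_P144363 (chr13:55269360-55269419, plus strand): cttgacctccgcctgacctttggacccttt
One of these hexamers, searched on the probe strand anywhere in the 60 bases, was in 4 of the 17 member probes and in 13.4% of all probes. A match describes the letters of a probe and does not locate the end of a transcript. Probes of different members shared no run of more than 9 bases.

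For Fgfr2 and Fgfr1, 3 probes are shown whole, each with a reading frame that holds no stop codon before its last codon. The Fgfr2 probe A_55_P2094881 is open in its first frame up to a closing stop codon, in capitals. The other probes shown are each open in a single frame throughout. The Fgf5 and Fgf4 probes have an open frame as well, so such a frame does not place a probe in coding sequence.
Fgfr2, A_55_P2094881 (chr7:137307473-137307532, minus strand): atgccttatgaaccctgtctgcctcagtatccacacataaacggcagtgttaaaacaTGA
Fgfr2, A_52_P158800 (chr7:137385966-137386025, minus strand): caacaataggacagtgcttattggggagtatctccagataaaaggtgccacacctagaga
Fgfr1, A_65_P11598 (chr8:26682852-26682911, plus strand): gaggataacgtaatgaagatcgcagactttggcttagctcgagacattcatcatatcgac

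Signals are the scanner software's processed intensities, corrected for background on each array. The array as a whole was dimmer for shLincU: the 75th percentile of all probes was 626 intensity units on shCtrl and 420 on shLincU. Each probe is therefore given as log2 of its signal relative to that percentile, and a difference is the shLincU value minus the shCtrl value. "Higher" and "lower" refer to shLincU relative to the bulk of probes on its array. A gene's difference is the mean over its probes that the software called well above background on both arrays. The error printed with a difference is the one the software assigns. It is mostly a preset multiplicative error and not a measured spread, whereas the SD between spots of the 300 probes spotted 10 times had a median of 0.038 and 0.040 log2 on the arrays. Levels of different probes cannot be compared, because probes differ in how well they bind.

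All 9 genes were measured on both arrays, through 16 of the 17 probes. Fgf8 and Fgf5 were at least 2-fold higher and no member was at least 2-fold lower, while the other 7 differed by less than 1.5-fold. Of all 21042 measured genes, 1.15% were at least 2-fold higher and 1.54% lower, or 2.69% in either direction. At 1.5-fold the shares of all genes were 4.78% higher and 4.85% lower. The median difference of the 9 members was 0.080, beside 0.020 for all genes. Above 0 were 6 members and below it 3, beside 11167 and 9875 of all genes. In plain intensity units, before any scaling, 3 of the 16 member probes gave more signal on shLincU, those of Fgf8 and Fgf5 and a dim Fgfr2 probe. The same was true of 5.63% of all probes well above background on both arrays. With 8 E1A spike-in controls as the scale, the median of all genes lay at -0.87. On that scale Fgf8 alone was at least 2-fold higher and Fgf15, Fgfr3 and Fgfr4 were at least 2-fold lower, as were 32.1% of all genes, while 0.209% were higher. The controls gave shLincU minus shCtrl signals from -0.07 to 0.53 log2, so they did not set 1 common scale. The scale used was their mean, 0.32. All 8 nonetheless lay above the shift of the 75th percentile itself, which was -0.57.

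**Figure D1:**
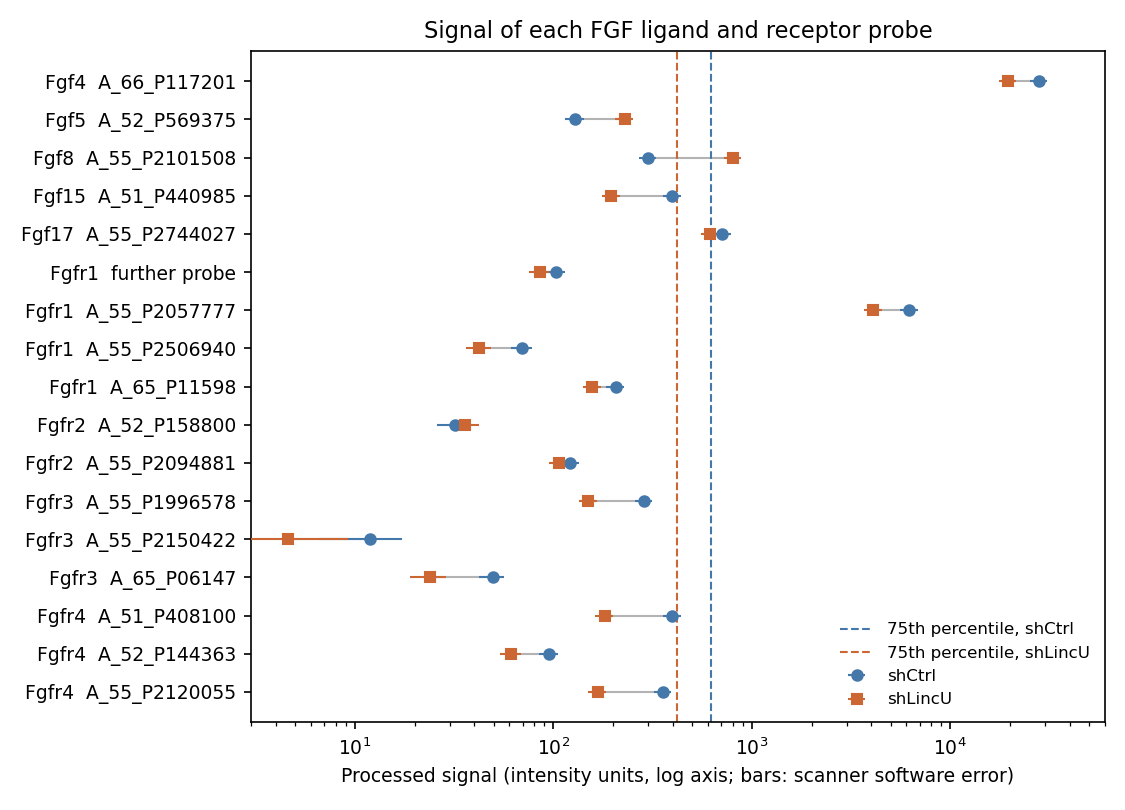
Processed signal in intensity units (log axis) of each of the 17 probes on the shCtrl array (circles) and the shLincU array (squares); bars are the scanner software's error, and dashed lines mark each array's 75th percentile at 626 and 420 units. The Fgf8 and Fgf5 squares lie to the right of their circles, while most other squares lie to the left, as the percentile does; signals of different probes are not comparable.

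Among the ligands, Fgf8, a growth factor of the primitive streak and of embryonic signalling centres, stood furthest apart. Its probe read 299 intensity units on shCtrl and 806 on shLincU, with software errors of 30.3 and 80.7. The uncorrected mean over the spot's pixels went from 341 to 864 units while the local background was 28 units on both arrays. Relative to the 75th percentile the level was -1.06 on shCtrl and 0.94 on shLincU, a difference of 2.0 (software error 0.21), or 4.01-fold. Only 35 of the 21042 measured genes, 0.166%, had a difference as high. Of the 14 spots around the Fgf8 spot, and likewise around the Fgf5 spot, none differed 2-fold between the arrays; spots with 2 or more such neighbours in 1 direction are said to lie beside discordant spots.

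Fgf5, a ligand of the same subfamily as Fgf4 that marks the epiblast after implantation, was the other member past 2-fold. Its probe read 128 units on shCtrl and 229 on shLincU, with software errors of 13.7 and 23.3. The level went from -2.29 to -0.88, a difference of 1.41 (software error 0.21), or 2.65-fold, which 103 genes, 0.489% of those measured, reached. When genes were ordered by level into 4 equal bins, the share past 2-fold in either direction was 5.68% in the dimmest bin, then 3.40% and 1.25%, and 0.399% in the brightest. Fgf5 lay in the bin with 3.40% and Fgf8 in that with 1.25%. With normexp background correction the differences were 1.09 for Fgf5 and 1.78 for Fgf8, a setting in which 0.456% of all genes were higher by 2-fold or more and 0.513% lower. With spike-in scaling they were 0.52 and 1.11. Both genes were read by a single probe, so no second probe checks them.

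Fgf4, the autocrine ligand of embryonic stem cells, differed little. Its probe read 27959 units on shCtrl and 19581 on shLincU, and its level was 5.48 and 5.54, a difference of 0.061 (software error 0.20). The sign of so small a value carries no direction, and with spike-in scaling it was -0.83. Fgf15, the mouse counterpart of human FGF19, lies on the same chromosome, with 35222 bases between the Fgf4 and Fgf15 probes (chr7:152086371-152086430, plus strand). It read 398 and 196 units, so its level went from -0.65 to -1.10, a difference of -0.45 (software error 0.21). Fgf15 was the lowest of the 9 members, and 8.29% of all genes were as low or lower. Neither of these neighbouring genes reached 2-fold, though with spike-in scaling Fgf15 was at -1.34.

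Fgf17 belongs to the Fgf8 subfamily and is made in the midbrain and hindbrain boundary region of the embryo. Its probe (chr14:71036316-71036375, minus strand) read 712 units on shCtrl and 619 on shLincU. Its level went from 0.19 to 0.56, a difference of 0.37 (software error 0.20), which 11.5% of all genes reached. That was higher relative to the bulk of genes, though with spike-in scaling it was -0.52. The subfamily's remaining ligand, Fgf18, read 2191 and 860 units and was at -0.77, so the 3 related ligands Fgf8, Fgf17 and Fgf18 gave 2.0, 0.37 and -0.77. In the subfamily of Fgf4, the values were 0.06 for Fgf4, 1.41 for Fgf5 and 0.56 for Fgf6.

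**Figure D2:**
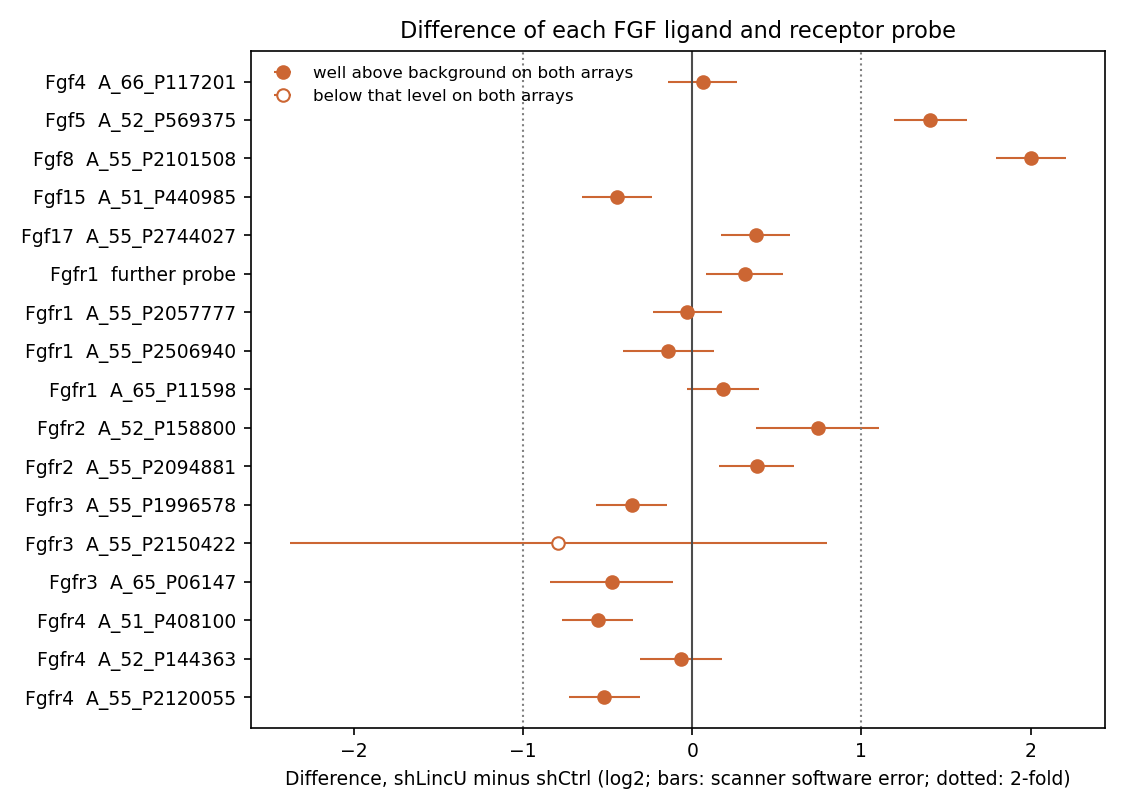
Difference of each of the 17 probes, shLincU minus shCtrl, in log2 units relative to each array's 75th percentile; bars are the scanner software's error, dotted lines mark 2-fold, and the open circle is the Fgfr3 probe below the well-above-background level on both arrays. The probes of Fgf8 and Fgf5, at 2.0 and 1.41, are the only points beyond a dotted line.

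Among the receptors no gene reached 2-fold, and their differences ran from -0.42 to 0.56. Fgfr1, the main receptor of embryonic stem cells, had 4 probes, with differences of -0.14, -0.030, 0.18 and 0.31, and a mean of 0.080 (software error 0.11). Its brightest probe (chr8:26685072-26685131, plus strand) read 6229 and 4096 units. The probe at 0.18, A_65_P11598, whose sequence is printed above, read 206 and 157 units, and that at 0.31 read 103 and 85.5 units. The lowest, A_55_P2506940 (chr8:26686086-26686145, plus strand), read 69.7 and 42.4 units, and of all member probes it alone lay beside discordant spots, with 2 neighbours at least 2-fold lower on shLincU. Without it the gene was at 0.15, with the brightest probe alone at -0.030 and with spike-in scaling at -0.81. The probes thus fell on both sides of 0 over a range of 0.45, beside a median range of 0.29 in the 7132 genes with several measured probes.

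Fgfr2, a receptor of primitive endoderm and trophoblast cells, was the highest receptor. The probe A_55_P2094881 read 122 units on shCtrl and 106 on shLincU, a difference of 0.38 (software error 0.22). The probe A_52_P158800, which lies 78433 bases away in the gene, read 32.2 and 36.1 units, a difference of 0.74 (software error 0.36). The gene's mean was 0.56 (software error 0.21), which 5.19% of all genes reached, and with spike-in scaling it was -0.33. The second probe was dim: the lowest signals called well above background were 23.8 units on shCtrl and 20.7 on shLincU. Both probes were higher relative to the bulk of genes, and the brighter one was the less so.

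Fgfr3, a receptor best known for restraining bone growth, was at -0.42 (software error 0.21), the mean of 2 measured probes. The brighter, A_55_P1996578 (chr5:34079649-34079708, plus strand), read 287 and 150 units, a difference of -0.36. The other, A_65_P06147, read 49.5 and 23.9 units, a difference of -0.47 (software error 0.36). It covers 235 bases of the genome (chr5:34077856-34078090, plus strand) with its 60, so its site spans a splice junction. A further probe, A_55_P2150422, was not well above background on either array, with 11.9 and 4.62 units, and has no measured difference. The gene lay in the dimmest of the 4 bins. With normexp background correction it was at -0.029, too small to give a direction, and the probe A_65_P06147 was at 0.14. With spike-in scaling the gene was at -1.31.

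Fgfr4, a receptor of metabolic tissues that also responds to Fgf15, was at -0.38 (software error 0.13) over 3 probes that did not move alike. The probes A_51_P408100 and A_55_P2120055, whose sites share 4 bases, read 398 and 181 units and 357 and 167 units, with differences of -0.56 and -0.52. The probe A_52_P144363 lies 557 bases before them and is described on the array as a splice variant of the gene. It read 95.2 and 61.2 units, a difference of -0.064 (software error 0.24). The overlapping pair agreed within 0.040, and the splice variant probe stood 0.45 to 0.49 above it. With the brightest probe alone Fgfr4 was at -0.56 and with spike-in scaling at -1.27. With normexp background correction it was at -0.19, and its splice variant probe was at 0.16. Relative to the bulk of genes, Fgfr3 and Fgfr4 were lower and Fgfr2 higher, by less than 2-fold in each case. For Fgfr3 that direction was not held with normexp background correction.

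**Figure D3:**
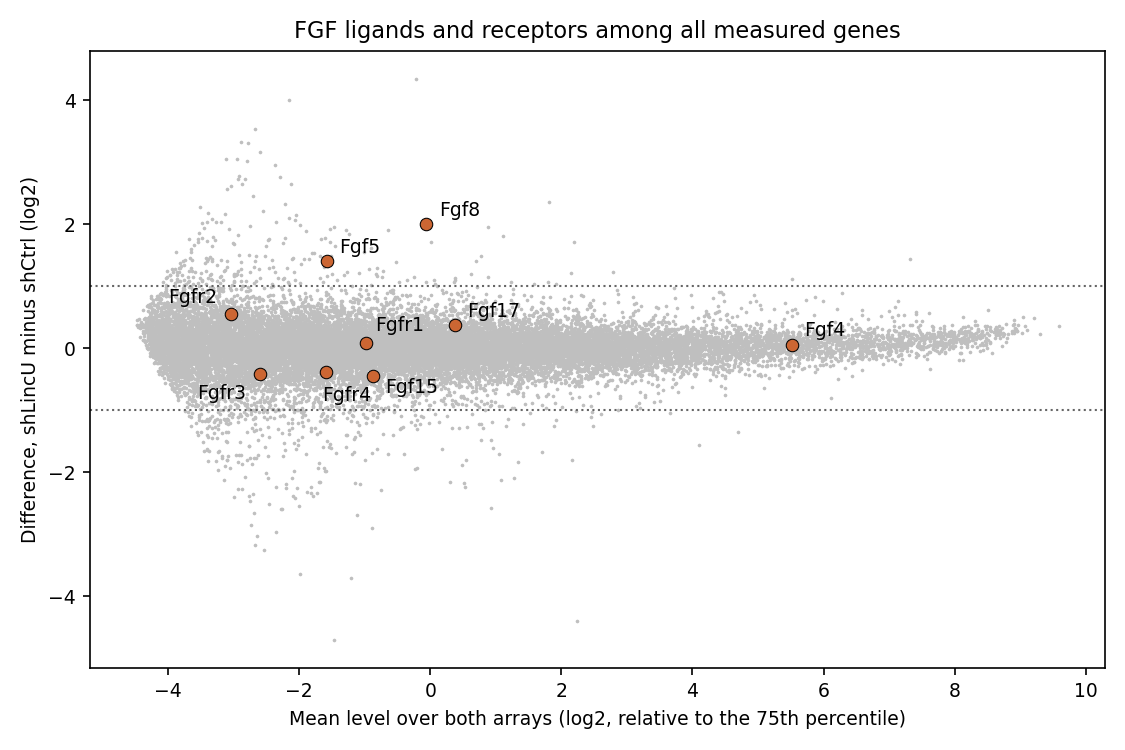
Difference, shLincU minus shCtrl (log2), of all 21042 measured genes (grey) against their mean level over both arrays (log2, relative to the 75th percentile), with the 9 FGF ligands and receptors marked; dotted lines are 2-fold. Fgf8 at 2.0 and Fgf5 at 1.41 lie above the upper line, and the grey points spread more widely towards low levels.

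The other genes of the FGF pathway, in 8 lists of 72 genes in all, gave 60 genes measured on both arrays. None reached 2-fold in either direction, beside 2.69% of all genes. Their median difference was 0.068, with 35 above 0 and 25 below, beside 11167 and 9875 of all genes. Beside them stand the 2 of 9 ligands and receptors past 2-fold. Members and lists were chosen with earlier results of these data known, so the contrast between them cannot be read as a result.

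Of 13 other secreted ligands, 7 were measured, with a median of 0.078. The highest were Fgf6 at 0.56 and Fgf9 at 0.38, the latter on 27.5 and 23.9 units, and the lowest were Fgf18 at -0.77 and Fgf10 at -0.0092. Fgf2, a ligand used to culture primed pluripotent cells, was not well above background on either array in any of its 3 probes. Neither were Fgf16, Fgf20, Fgf21 and Fgf22, and Fgf7, a ligand of stromal cells, was so on shCtrl only, at 34.9 units against 14.1. Of the 4 intracellular FGF homologous factors, which are not secreted and act on ion channels, 3 were measured: Fgf13 at 0.14, Fgf12 at 0.095 and Fgf11 at -0.42, the last at 0.0085 with normexp background correction.

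Receptor partners, which include co-receptors and ligand carriers, had a median of -0.093, with 6 of 8 measured. The decoy receptor Fgfrl1 was at 0.10 and Fgfbp3, a carrier of FGFs, at -0.013. Flrt2 and Flrt1, membrane proteins that bind FGF receptors, were at -0.43 and -0.39, but at -0.023 and 0.013 with normexp background correction. The klotho co-receptors of the endocrine FGFs, Kl and Klb, were not measured on both arrays. Heparan sulfate core proteins had a median of 0.042, with 9 of 10 measured, from Sdc3 and Gpc1 at 0.46 and 0.43 to Sdc4 and Gpc4 at -0.34 and -0.20. The enzymes that build and trim heparan sulfate had a median of -0.0036, with 11 of 12 measured. Sulf1, a sulfatase that removes sulfate from the chains outside the cell, was the highest at 0.69 over 3 probes between 0.58 and 0.91. Ext1, a polymerase of the chains, followed at 0.12, and Sulf2 and Extl3 were the lowest at -0.24 and -0.20.

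Downstream of the receptors, the 10 adaptors were all measured, with a median of 0.061. Shc1 and Grb2, which link receptors to RAS activation, were at 0.30 and 0.24, and Frs3 and Gab1 at -0.32 and -0.25, Frs3 on a single measured probe beside discordant spots. Feedback inhibitors and ETS targets, which the pathway itself switches on, had a median of 0.16, with 10 of 11 measured and 7 above 0. The ETS factor Etv4 and the inhibitor Spred1 were highest at 0.42 each, the latter over probes at 0.048 and 0.79. Spry4 and Spred2 were lowest at -0.44 and -0.21, and the probes of Spred2 ranged from -0.68 to 0.32. Of the splicing regulators that select receptor exons, all 4 were measured, with a median of 0.25. Esrp1, an epithelial splicing factor that favours the epithelial form of Fgfr2, was the highest at 0.63 over probes at 0.56 and 0.70, followed by Ptbp1 at 0.26. Esrp2 and Rbfox2 were at -0.051 and 0.24. All these differences are relative to the bulk of genes, and with spike-in scaling the median of every list was below 0, from -0.98 for receptor partners to -0.64 for splicing regulators.

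**Figure D4:**
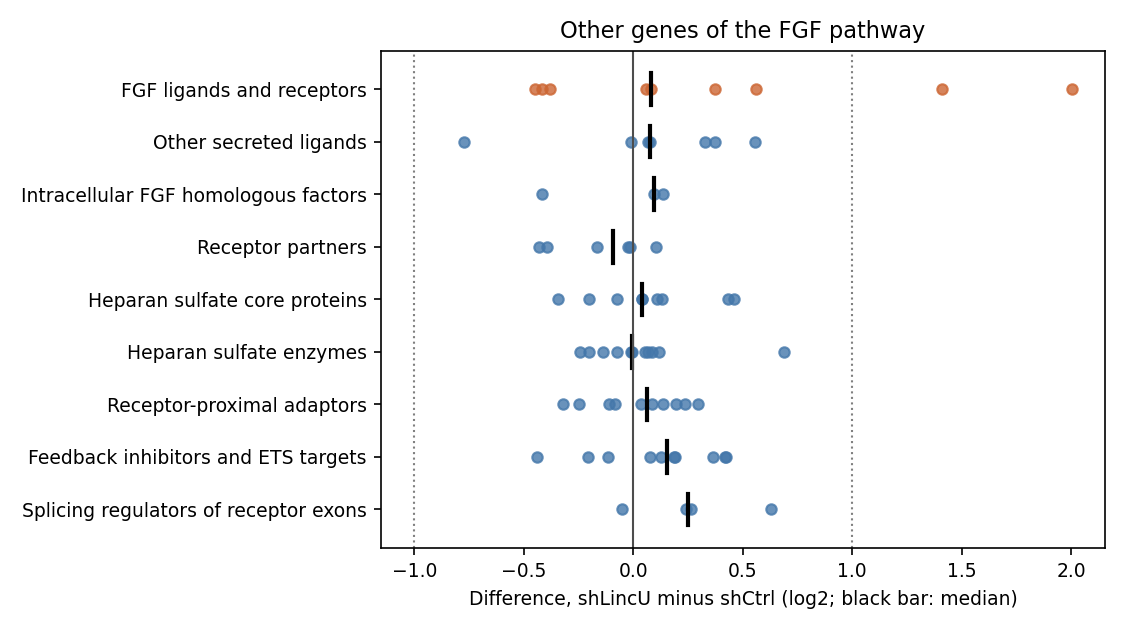
Difference, shLincU minus shCtrl (log2), of each measured gene in the 9 ligands and receptors (top row) and in 8 lists of other FGF pathway genes; points are genes, black bars are medians, dotted lines mark 2-fold. All 60 other pathway genes lie inside the dotted lines, while Fgf8 and Fgf5 lie outside.

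Of 6 marker lists for the stem cells and for other cells that the cultures could hold, the primitive streak and the feeder lists had members past 2-fold and the other 4 had none. All 8 stem cell markers were well above background on both arrays, with a median of 0.0074, 5 above 0 and 3 below. They ran from Utf1 at 0.28 to Esrrb at -0.13, with Pou5f1 at -0.024 and Sox2 at 0.00041. Nanog was at 0.27, over probes at -0.26 and 0.79. Of 6 primitive streak and mesoderm markers, the cells in which Fgf8 is known to be made, 5 were measured and 2 were higher by 2-fold or more, Evx1 at 1.16 and T at 1.1, beside 1.15% of all genes. All 5 were above 0, as were 11167 of the 21042 genes, and their median was 0.86. One of them, Eomes, is a mean of probes at -0.88 and 1.37, 1 of which lay beside discordant spots. With normexp background correction Evx1 was at 0.996 and T at 0.963, so neither reached 2-fold. With spike-in scaling Evx1 was at 0.27 and T at 0.21. The list's summed signal, in units of the 75th percentile, was 1.91 on shCtrl and 3.83 on shLincU, with 37.2% and 39.6% of it from the probe of T. Mixl1 was well above background on shLincU only.

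Epiblast markers, all 6 of them measured, had a median of 0.46, from Igfbp3 at 0.83 to Foxd3 at -0.52. Above 0 were 4 and below it 2, Foxd3 and Otx2, the latter at -0.37 over probes from -0.70 to 0.24. Primitive endoderm markers, with 5 of 6 measured, had a median of 0.14 and were highest for Gata4 at 0.81. Trophoblast markers, also with 5 of 6 measured, were highest for Cdx2 at 1.0, just under 2-fold. Their median of 0.24 was the value of Eomes, which the streak list also holds. Pdgfra was well above background on shCtrl only, and Elf5 on neither array.

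Of 11 markers of the fibroblast feeder, 10 were measured and 5 were lower by 2-fold or more, beside 1.54% of all genes. Their median was -1.07, beside 0.020 for all genes. The lowest were Dcn at -2.41 and Ccl2 at -2.24, and the highest were Col3a1 at 0.64 and Col1a1 at 0.45. The list's summed signal was 17.8 on shCtrl and 10.1 on shLincU, with 31.4% and 28.8% of it from the probe of Thy1. Lum was well above background on shLincU only. The part of these cell types in the values of the FGF ligands and receptors was not tested. In bulk RNA, fewer cells of a type and less RNA per cell cannot be told apart.

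**Figure D5:**
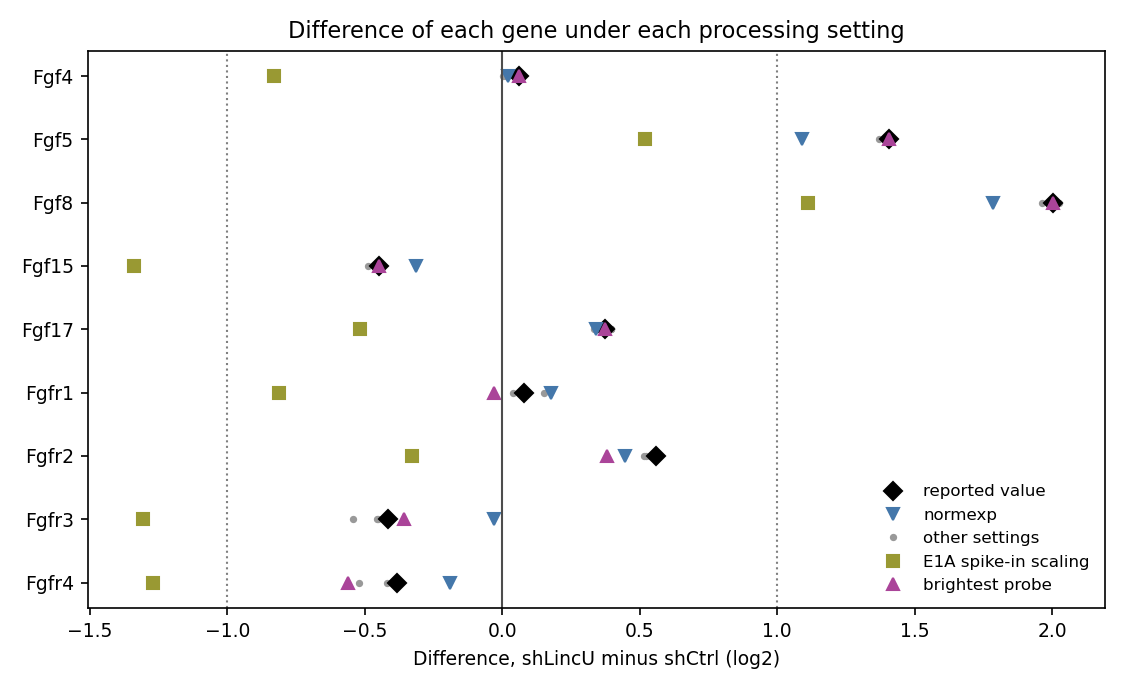
Difference, shLincU minus shCtrl (log2), of each of the 9 genes as reported (diamonds) and under 12 other processing settings; squares are scaling to the spike-in controls, down-triangles normexp background correction, up-triangles the brightest probe, and dotted lines mark 2-fold. Spike-in scaling shifts every gene to the left by the same amount, which leaves Fgf8 at 1.11 and Fgf5 at 0.52, and normexp leaves Fgfr3 at -0.029.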

How the data were processed

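RNA of each group was labelled with 1 dye, Cy3, and put on its own Agilent array, per the labels. The deposited scanner files hold intensity values per spot made with Feature Extraction 10.7.1.1, a version the submitters' processing notes give, and spatially detrended, per the file headers. Other deposited columns used were flags of 0 or 1. The authors' deposited value table holds log2 values, whose median was 5.65 in either column. Their slope on the log2 scanner signal was 1.00, which settles scale and direction but leaves the normalization between arrays unknown. It was more than 1 constant shift between the arrays. The deposited difference was 0.0014 for Fgf4, beside 0.061 as reported here, and 0.39 for Fgf17, beside 0.37.

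Log2 processed intensity was centred on each array's 75th percentile over non-control probes, without 98 and 138 outlier spots. Of 56605 probes, 60.9% and 57.9% were well above background on shCtrl and shLincU, and no spot was saturated. Genes carry the array's names. Genes were counted at a fixed size of 2-fold. All members were named, and per pathway list the 2 highest and 2 lowest genes; further pathway genes and the markers named were picked with values in view. The members, lists and alternatives were chosen with earlier results of these data known. The calculation was tested on simulated data. The tools were limma 3.58.1 in R 4.3.3, and numpy 2.4.6, pandas 2.3.3 and matplotlib 3.10.9 in Python 3.11.15. Alternatives were normexp, quantile, loess, median and spike-in scaling, the deposited values, detection and outlier filters, spots beside discordant spots, the brightest or median probe, and other fold sizes. The sequence and position of 1 Fgfr1 probe are not reported here.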

Additional observations from a re-analysis of the deposited data

How the results depend on the processing

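No paired analysis was possible because there is a single array per group, which also means that neither array can be omitted. Of the 12 settings run beside the reported one, spike-in scaling left 1 member at least 2-fold higher and 3 lower in place of 2 and 0. In the other 11 settings Fgf8 ran from 1.78 to 2.02 and Fgf5 from 1.09 to 1.41. The detection, neighbour and probe-choice settings could not change any of the 5 ligands, each read by a single measured probe without discordant neighbours. Keeping outlier spots could move the ligands only through the percentile. Their signs in those settings repeat the reported ones. Fgf15, Fgfr3 and Fgfr4 stayed below 0, Fgfr3 by only -0.029 with normexp, and Fgf17 and Fgfr2 above it. Fgf4 ran from 0.0014 to 0.061, too small to give a direction. Fgfr1 was above 0 in 10 of these 11 settings. Apart from these settings, a size of 3-fold in place of 2-fold left 1 member higher, beside 0.347% of all genes. Counts over all genes moved more. The reported 242 higher and 323 lower became 44 and 6751 with spike-in scaling and 96 and 108 with normexp. Without spots beside discordant spots 163 were higher and 261 lower, with another detection flag 954 and 905 of 26584 genes, and with no background filter 1471 and 1331 of 37058, where the median of all genes was 0.14. The median of other secreted ligands was 0.33 with that flag and 0.38 with no filter, and that of intracellular factors 0.53 and 0.62. Genes near the lowest signal called well above background, among them Fgfr2 and Fgfr3, are the least certain.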
